A study of Mus musculus with 4 samples.

Results

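The thymus of a preleukemic Tal1/Lmo2 transgenic mouse was compared with that of a wild type (WT) littermate, taking all thymocytes of each together. Both mice were of the FVB/N strain and 6 weeks old. The preleukemic mouse carried Tal1 and Lmo2 as transgenes driven by the proximal Lck promoter, which is active in immature thymocytes, and had no leukemia at sampling. Each group was 1 thymus and 1 library, so no spread between animals is known and no test was made. Viable single cells had been sorted after red cell lysis and sequenced by droplet-based 3′ RNA sequencing, in which each captured transcript is counted as a unique molecular identifier (UMI). Cells were chosen as barcodes with over 500 genes and under 10% of UMIs from mitochondrial genes. This kept 4220 of 5879 WT barcodes and 5576 of 6964 preleukemic barcodes, together 9796 of the 17614 cells that the same limits kept over all 4 libraries of the study.

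TAL1 is a basic helix-loop-helix factor that is normally silenced as progenitors commit to the T lineage, and LMO2 is a LIM-domain adaptor that bridges TAL1 and GATA factors in blood progenitors. TAL1 pairs with the E proteins E2A and HEB, which otherwise bind E-box sites to drive rearrangement of T-cell receptor (TCR) genes and the passage of thymocytes from the double-negative (DN) stage, with neither CD4 nor CD8, to the double-positive (DP) stage with both. DP cells are then selected on their receptor and become CD4 or CD8 single-positive cells that leave the thymus.

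The libraries differed in depth. The kept cells held 24042062 UMIs in WT and 40851235 in the preleukemic library, with medians of 3800.5 and 4888 UMIs per cell and of 1726.5 and 2082 genes per cell. High mitochondrial content removed 27.3% of WT barcodes and 19.6% of preleukemic barcodes. The labels name the 3′ chemistries v1 and v3.1, whereas the study's methods name v3 and v3.1, and neither assigns them to libraries, so chemistry and genotype cannot be told apart. In both libraries at least 99.1% of cells, thinned to 2000 UMIs, carried at least 3 of 11 T-lineage markers, which bears out the labelled cell type. The sex given in the labels was not borne out. Both mice are labelled male, yet Xist, which is expressed from the inactive X chromosome of females, stood at 1380.2 CPM in WT and at 1869 CPM in the preleukemic library, and 4 Y-linked genes together had 1 and 5 UMIs. The libraries shared 8 kept barcodes.

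Levels are given as CPM, the UMIs of a gene per 1000000 UMIs, summed over the kept cells of a library. Ratios of CPM and their 95% intervals, and the exact 95% intervals of shares, cover counting error only. A summed level cannot tell fewer cells of a type from less RNA per cell. For shares of cells with a gene, each cell was thinned to 2000 UMIs, which left 3229 WT and 5226 preleukemic cells. The 991 WT and 350 preleukemic cells under that depth were left out, or 23.5% and 6.28%.

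Of 17961 genes with a UMI, 8044 had a mean of at least 10 CPM over both libraries. Of these, 285 were at least 2-fold higher in the preleukemic library and 322 at least 2-fold lower, 3.54% and 4.00% of the genes compared. These shares are the background for the counts in gene groups below. Most genes were close to equal, with 7437 (92.5%) under 2-fold and a median log2 ratio of -0.03. At least 4-fold differences were seen in 95 higher and 107 lower genes. Because the filter reads the mean of both libraries, a gene near 0 in one library passed only by being high in the other, and the counts of groups are descriptions. In the plot of gene levels, genes far from the diagonal were near 0 in one of the libraries. They lay on both sides of it, with Tal1 and Cpa3 above and S100a8 and S100a9 below.

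**Figure D1:**
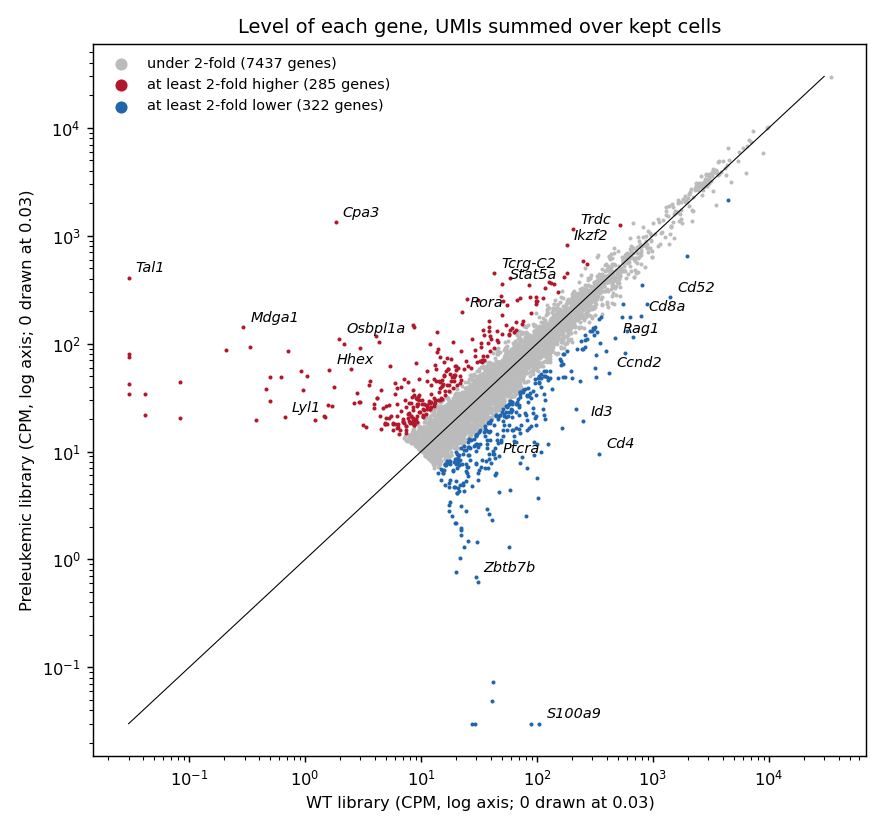
Level of each of the 8044 genes compared in the WT library (x axis) and the preleukemic library (y axis), in CPM on log axes, with levels of 0 drawn at 0.03. Red points are the 285 genes at least 2-fold higher in the preleukemic library, blue points the 322 at least 2-fold lower and grey points the other 7437. The line marks equal levels. Tal1 and Cpa3 are among the genes far above it, and S100a9 is among those far below it.

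The transgenes were read first. Tal1 (ENSMUSG00000028717, chromosome 4, 115056426 to 115071755, GRCm38) had 0 UMIs in WT and 16732 in the preleukemic library. This is 0 CPM in WT, with an upper 95% limit of 0.153 CPM, and 409.6 CPM (403 to 416) in the preleukemic library. Against a floor of 3 UMIs in WT, Tal1 was at least 3282-fold higher. A Tal1 UMI was found in 0 of the thinned WT cells and in 54.3% of the thinned preleukemic cells. Lmo2 had 22 UMIs in WT and 183 in the preleukemic library, or 0.915 and 4.48 CPM, a ratio of 4.90 (3.14 to 8.0), and was found in 0.0619% and 0.976% of thinned cells. Thus Tal1 was found in the preleukemic library alone, while Lmo2 stayed under the 10 CPM filter in both. Whether the Lmo2 transgene carries the 3′ sequence that is counted as Lmo2 is not given in the sources used here, so its low level does not measure the transgene. B or myeloid-like cells, which should lack transgene RNA, had a Tal1 UMI in 0 of 4 WT and 0 of 17 preleukemic thinned cells. Their median depths were 7243.5 and 3955 UMIs before thinning. They had at least 4 B or at least 4 myeloid markers and under 3 of 11 T-lineage markers. Cells with more T-lineage RNA were thus left out, so these counts are a limited background.

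Genes of the TAL1 complex and its partners were at or above their WT level more often than below it. Of 16 members, 12 passed the filter, and 4 were at least 2-fold higher, Tal1 among them, and 0 lower. Lyl1, a close relative of Tal1, stood at 0.665 CPM in WT and 20.8 CPM in the preleukemic library, 31.2-fold higher (19.1 to 54.9). Lyl1 lies within Nfix on the opposite strand, and whether counting used strand is not given in the sources used here. Cbfa2t3, the corepressor ETO2 of the complex, stood at 38.5 and 164 CPM, 4.25-fold higher (3.97 to 4.56), and was found in 7.15% and 29.4% of thinned cells. Runx1, a factor that binds next to TAL1, stood at 151 and 303 CPM, 2.01-fold higher (1.94 to 2.09). Ldb1, the scaffold that links LMO2 to DNA-bound factors, was near equal at 127 and 124 CPM.

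Among the E proteins and their Id inhibitors, members differed in direction. Of 7 members 5 passed, with 0 higher and 2 lower. Tcf12, which encodes HEB, stood at 285 CPM in WT and 408 CPM in the preleukemic library, a ratio of 1.43 (1.39 to 1.47). Tcf3, which encodes E2A, stood at 101 and 138 CPM, a ratio of 1.37 (1.30 to 1.43). Tcf4, another E protein gene, stood at 43.5 and 36.4 CPM, below WT but under 2-fold. The 2 genes at least 2-fold lower were both Id inhibitors, which bind E proteins and keep them off DNA. Id3 stood at 252 CPM in WT and 19.1 CPM in the preleukemic library, 13.1-fold lower (12.2 to 14.2), and was found in 28.5% and 1.89% of cells. Id2 stood at 117 and 20.1 CPM, 5.79-fold lower (5.36 to 6.27). Both were lower among cells with a Cd8a or Cd8b1 UMI and among cells without one. Of the thinned cells without one, 481 WT and 18 preleukemic cells had a Cd4 UMI, so these were not like cells.

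Since TAL1 and the E proteins read E-boxes (CANNTG) and GATA factors read AGATAA, the sequence before the start of 4 genes is shown: Cpa3 and Mdga1, which had the largest ratios after Tal1 among genes with at least 100 CPM and 10% of cells in one library, Id3, and Ptcra, the pre-TCR alpha chain. Each runs 250 bases up to the start, 5′ to 3′ on the strand of the gene, from RefSeq on GRCm38.p6, with E-boxes in capitals. The windows are chr3:20242182-20242431 (minus strand) for Cpa3, chr17:29887883-29888132 (minus strand) for Mdga1, chr4:136143572-136143821 (plus strand) for Id3 and chr17:46763713-46763962 (minus strand) for Ptcra.
Cpa3: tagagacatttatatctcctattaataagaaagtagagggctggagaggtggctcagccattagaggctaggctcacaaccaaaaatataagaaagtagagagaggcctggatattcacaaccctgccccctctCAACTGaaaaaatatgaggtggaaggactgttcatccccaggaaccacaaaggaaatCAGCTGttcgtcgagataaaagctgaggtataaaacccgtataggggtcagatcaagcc
Mdga1: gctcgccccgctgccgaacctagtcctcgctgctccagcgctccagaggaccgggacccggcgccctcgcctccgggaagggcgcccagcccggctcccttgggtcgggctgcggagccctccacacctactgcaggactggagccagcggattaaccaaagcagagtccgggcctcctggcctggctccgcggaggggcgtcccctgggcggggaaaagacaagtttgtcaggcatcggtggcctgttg
Id3: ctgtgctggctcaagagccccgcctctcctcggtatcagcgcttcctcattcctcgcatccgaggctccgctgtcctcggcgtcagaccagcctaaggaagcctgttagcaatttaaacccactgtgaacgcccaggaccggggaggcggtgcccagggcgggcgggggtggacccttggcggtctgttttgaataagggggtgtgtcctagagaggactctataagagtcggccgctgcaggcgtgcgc
Ptcra: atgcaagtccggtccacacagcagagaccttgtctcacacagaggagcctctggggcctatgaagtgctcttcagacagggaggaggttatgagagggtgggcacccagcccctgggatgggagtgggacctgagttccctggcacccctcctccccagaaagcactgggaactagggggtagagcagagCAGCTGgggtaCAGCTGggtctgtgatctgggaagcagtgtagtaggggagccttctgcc
The Cpa3 window held CAACTG 116 bases and CAGCTG 59 bases before the start, and 1 AGATAA. The Ptcra window held CAGCTG at 60 and at 49 bases before the start. The Mdga1 and Id3 windows held 0 E-boxes and 0 AGATAA, which says only that these letters are absent from these windows. Both strands were searched.

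Over all 32851 promoters of the table, 66.2% held an E-box in the 250 bases before the start. The share was 55.4% of 8108 promoters of genes compared here, 63.1% of 282 promoters of higher genes and 58.0% of 326 promoters of lower genes. CAGCTG, which is one form of E-box, was in 10.6% of promoters of genes compared, 17.7% of those of higher genes and 13.2% of those of lower genes. CAGATG was in 9.35%, 13.5% and 12.3%, and CAGGTG in 14.2%, 17.4% and 17.5%, in the same order. AGATAA was in 5.55%, 9.22% and 7.06%. A gene with several starts has several promoters in the table, and no test was made. The promoters covered 6357 of the 8044 genes compared, 199 of the 285 higher genes and 250 of the 322 lower genes. The remaining genes were not searched. In all 5 searches the promoters of higher genes and those of lower genes both held the letters in a larger share than the promoters of genes compared.

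Among genes with at least 100 CPM and at least 10% of cells in one library, the 15 with the largest ratio in each direction were named. After Tal1, Cpa3 came first. Cpa3 encodes carboxypeptidase A3, a protease stored in mast cell granules that is also transcribed in early progenitors. Cpa3 stood at 1.83 CPM in WT and 1339.8 CPM in the preleukemic library, 732-fold higher (545 to 1008), and was found in 0.155% and 58.2% of thinned cells. Among the B or myeloid-like cells, 0 of 4 WT and 1 of 17 preleukemic cells had a Cpa3 UMI. Of 18 mast cell and basophil markers Cpa3 alone passed the filter, and Fcer1a, Mcpt1, Mcpt2, Mcpt4, Tpsab1, Tpsb2 and Mrgprb2 were at 0 UMIs in the preleukemic library. Cells with at least 3 of these markers numbered 0 in WT and 21 of 5576 in the preleukemic library (0.377%, 0.233 to 0.575%). The marker list summed to 10.1 CPM in WT and 1355 CPM in the preleukemic library.

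Other named genes with large ratios have varied functions. Mdga1, which encodes a membrane-anchored adhesion molecule, stood at 0.291 CPM in WT and 141 CPM in the preleukemic library, 485-fold higher (235 to 1207). Osbpl1a, an oxysterol-binding protein, stood at 1.95 and 112 CPM, 57.0-fold higher. Angpt1, the ligand of the Tie2 receptor, stood at 4.08 and 118 CPM, 29.0-fold higher (23.7 to 35.8). All 3 were found in under 1% of thinned WT cells and in 21.4% to 28.8% of thinned preleukemic cells, Angpt1 in the fewest. Myh10, a nonmuscle myosin heavy chain, stood at 4.33 and 104 CPM, 24-fold higher. Atp8b4, a phospholipid flippase, was 17.6-fold higher (15.3 to 20.4) and Arhgap19, a GTPase-activating protein, 9.26-fold higher (8.29 to 10.4). Dpp4, the peptidase CD26, stood at 59.0 and 404 CPM, 6.85-fold higher (6.48 to 7.23), and was found in 11.2% and 55.6% of thinned cells.

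The remaining higher genes were transcription factors and TCR gamma segments. Rora, a nuclear receptor used by innate-like lymphocytes, stood at 22.5 CPM in WT and 195 CPM in the preleukemic library, 8.65-fold higher (7.93 to 9.45). Stat5a, which transmits the signal of IL-7 and other cytokines, stood at 50.2 and 354 CPM, 7.04-fold higher (6.64 to 7.47). The gamma segments Trgv2, Tcrg-C1, Tcrg-C2 and Tcrg-C4 were 16.2-fold, 8.16-fold, 10.5-fold and 10.4-fold higher. The plot of shares gives the percent of cells with each named gene.

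**Figure D2:**
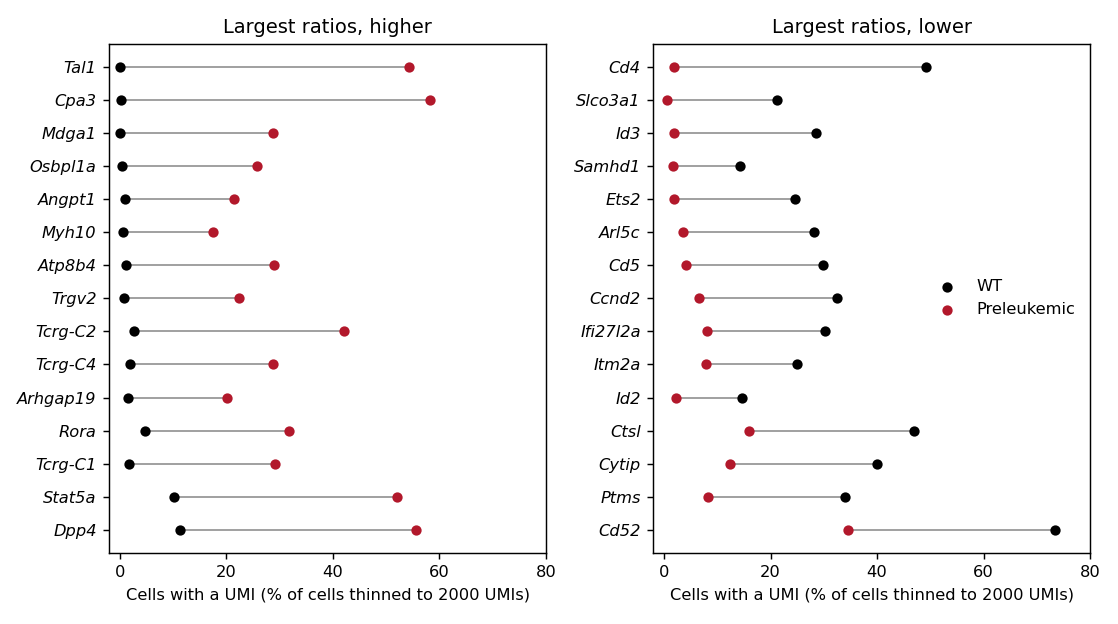
Percent of cells thinned to 2000 UMIs with at least 1 UMI of each named gene (x axis) in the WT library (black, 3229 cells) and the preleukemic library (red, 5226 cells), for the 15 genes with the largest ratios in each direction. Cpa3 was found in 0.155% of WT and 58.2% of preleukemic cells, and Cd4 in 49.1% and 1.86%.

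The named genes were also counted per cell, as a description alone, since they were chosen for their ratio and share of cells and the direction was thereby fixed. Leaving out Tal1, the median thinned cell held a UMI of 0 of the other 14 higher genes in WT and of 4 in the preleukemic library. At least 3 of the 14 were found in 1.58% of WT cells and 72.5% of preleukemic cells. Among cells with a Cd8a or Cd8b1 UMI these shares were 0.398% and 39.5%, and among cells without one 3.53% and 85.6%. Of the 15 lower genes the median cell held 5 in WT and 1 in the preleukemic library, and at least 3 were found in 88.8% and 10.8% of cells. The count of genes per cell was chosen after the levels had been seen. Over all genes, 22 were found in at least 10% of thinned preleukemic cells and under 1% of WT cells, and 5 the other way around.

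Among the lower genes with at least 100 CPM and 10% of cells in one library, Cd4 had the largest ratio. Cd4, the coreceptor for MHC class II, stood at 342 CPM in WT and 9.52 CPM in the preleukemic library, 35.9-fold lower (32.4 to 39.8), and was found in 49.1% and 1.86% of thinned cells. Cd5, which dampens TCR signals and follows their strength, stood at 218 and 24.6 CPM, 8.88-fold lower (8.30 to 9.51). Cd52, a small glycoprotein of lymphocyte membranes, stood at 1399 and 269.7 CPM, 5.19-fold lower. These 3 surface molecules were lower with and without a Cd8a or Cd8b1 UMI. More of the WT cells without one had a Cd4 UMI, so that gate did not hold like cells. Slco3a1, an organic anion transporter, was 27.4-fold lower (23.2 to 32.4), from 102 to 3.72 CPM. Ets2, an Ets-family factor, was 10.7-fold lower, from 125 to 11.8 CPM. Samhd1, which breaks down deoxynucleotides, was 10.9-fold lower, from 109 to 9.96 CPM.

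Ccnd2, the D-type cyclin 2, stood at 417 CPM in WT and 53.5 CPM in the preleukemic library, 7.78-fold lower (7.43 to 8.15). Ctsl, the lysosomal protease cathepsin L, stood at 671 and 116 CPM, 5.79-fold lower (5.60 to 5.98). Ctsl followed the coreceptor gates, since it was 1107 and 199 CPM among cells with a Cd8a or Cd8b1 UMI but 91.7 and 83.2 CPM among cells without one. Arl5c, a small GTPase, was 10.0-fold lower, Itm2a, a membrane protein found in maturing thymocytes, 6.47-fold, Cytip, a regulator of lymphocyte adhesion, 5.34-fold, and Ptms, which encodes parathymosin, 5.22-fold. Ifi27l2a, an interferon-induced gene with close copies beside it, was 7.05-fold lower.

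Cells with coreceptor transcripts made up unlike shares of the libraries. Of the thinned cells, 34.3% of WT (32.6 to 35.9%) and 1.51% of preleukemic cells (1.20 to 1.88%) had a UMI of both Cd4 and Cd8, the latter counted as Cd8a or Cd8b1. Cells with Cd4 alone made up 14.9% and 0.344%. Cells with neither made up 22.9% of WT (21.4 to 24.3%) and 71.2% of preleukemic cells (69.9 to 72.4%). Cells with Cd8 alone took a like share in both, 28.0% (26.5 to 29.6%) and 27.0% (25.8 to 28.2%). At their own depth the cells with both made up 55.1% and 3.93%, and those with neither 7.70% and 59.7%, so these shares depend on the depth at which they are read. Among the cells under 2000 UMIs that thinning left out, 65.9% of WT and 1.43% of preleukemic cells had both at their own depth. As background, 1 of 4 WT and 0 of 17 preleukemic B or myeloid-like cells had a Cd4 UMI. A Cd8 UMI was found in 0 and 1 of them. These cells were picked to have few T-lineage markers, so they are a limited background. The coreceptor classes are UMIs in a cell and not surface protein.

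**Figure D3:**
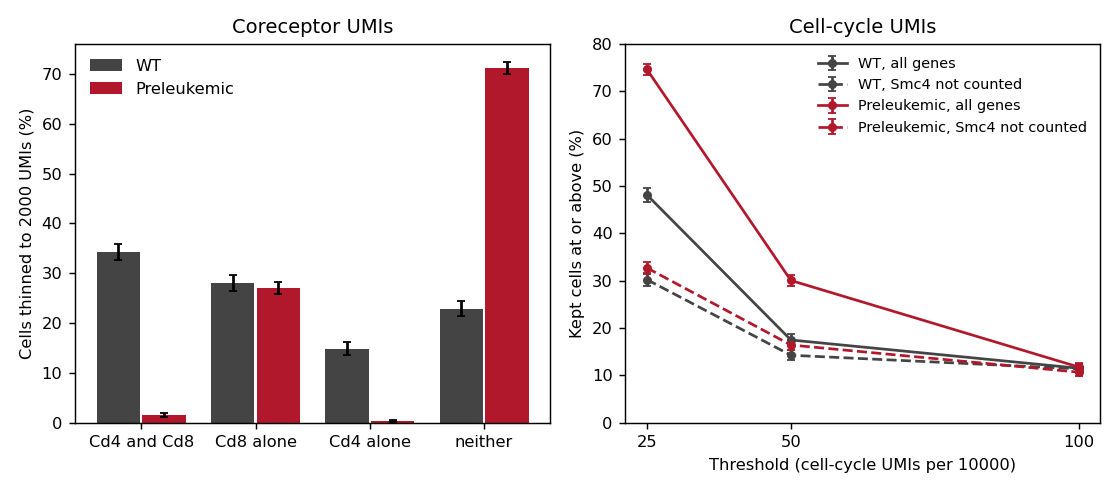
Left, percent of cells thinned to 2000 UMIs in each coreceptor class (Cd8 meaning a Cd8a or Cd8b1 UMI) in the WT (grey) and preleukemic (red) libraries. Right, percent of kept cells at or above a threshold of cell-cycle UMIs per 10000, with all genes of the list (solid) and with Smc4 not counted (dashed). Bars and points are percentages with exact 95% intervals. Cells with neither coreceptor made up 22.9% of WT and 71.2% of preleukemic cells, and the solid lines lie apart at 25 and 50 while the dashed lines lie close together.

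Of 20 genes of the DP stage, all of which passed, 0 were higher and 10 lower, with a median log2 ratio of -1.16. Plxnd1, a semaphorin receptor that guides DP thymocytes, stood at 57.5 CPM in WT and 1.30 CPM in the preleukemic library, 44.3-fold lower (33.7 to 59.5). Slc7a11, a cystine transporter, was 21.1-fold lower (16.1 to 27.9). Not all members were lower, since Cd24a, a surface antigen of immature thymocytes, stood at 148 and 220.5 CPM and Mns1 at 67.5 and 123 CPM. Of 11 coreceptor and lineage-choice genes, all of which passed, 5 were lower and 0 higher. Cd8a was 4.40-fold lower (4.29 to 4.53), from 789 to 179 CPM, and Cd8b1 3.85-fold lower (3.75 to 3.94), from 894 to 233 CPM. Zbtb7b, the factor ThPOK of the CD4 lineage, was 43.7-fold lower (30.0 to 66.2), from 29.9 to 0.685 CPM.

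Of 19 positive selection genes 16 passed, with 0 higher and 10 lower, and a median of -1.56. Egr1, an immediate target of TCR signals, stood at 89.6 CPM in WT and 17.1 CPM in the preleukemic library, 5.25-fold lower (4.82 to 5.72). Nab2, its corepressor, was 9.25-fold lower (8.2 to 10.5), from 71.8 to 7.76 CPM. Of 24 genes of mature thymocytes, all of which passed, 1 was higher and 13 lower. Ccr7, the receptor that draws selected cells to the medulla, was 10.1-fold lower (9.09 to 11.3), from 95 to 9.38 CPM. S1pr1, the exit receptor, was 5.11-fold lower (4.50 to 5.81), and Klf2, which drives its transcription, 3.57-fold lower (3.39 to 3.77). The higher member was Ly6c1, a surface antigen of some mature T cells, at 2.16 and 99.4 CPM, 46.0-fold higher (35.0 to 61.6), although reads of Ly6c1 and its near copy Ly6c2 may be divided between them.

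Of 10 regulatory T cell genes 8 passed, with 5 lower and 1 higher. Tnfrsf4, the receptor OX40, was 12.8-fold lower (10.6 to 15.6), from 37.3 to 2.91 CPM, and Tnfrsf18, the receptor GITR, 2.63-fold lower (2.43 to 2.84). Ctla4, an inhibitory receptor, was near equal at 10.5 and 12.4 CPM. The higher member was Ikzf2, which encodes Helios and is shared with the list of T-lineage factors. 

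T-lineage specification factors were divided. All 18 passed, with 4 higher and 4 lower and a median of -0.03. Ikzf2 stood at 180.2 CPM in WT and 820.15 CPM in the preleukemic library, 4.55-fold higher (4.41 to 4.70), and was found in 17.0% and 72.3% of thinned cells. Myb, which supports survival of DN and DP cells, stood at 251 and 580.1 CPM, 2.31-fold higher (2.25 to 2.38). Zfpm1, the GATA cofactor FOG1, was also 2.31-fold higher (2.10 to 2.55). Against these, Satb1, a chromatin organizer of thymocytes, stood at 1976 and 643 CPM, 3.07-fold lower (3.03 to 3.12). Ikzf3, which encodes Aiolos, was 4.65-fold lower (4.30 to 5.03). Gata3, Bcl11b and Tox, factors of T-lineage commitment and CD4 choice, were near WT, with ratios of 1.01, 1.33 and 1.19.

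Progenitor factors were mostly at low levels. Of 20 members, 5 passed, with 3 higher, 0 lower and a median of 1.49. Hhex, a homeobox factor of blood progenitors, stood at 1.62 CPM in WT and 57.5 CPM in the preleukemic library, 35.4-fold higher (25.8 to 49.96), and was found in 0.248% and 13.2% of thinned cells. Igf2bp3, an RNA-binding protein of fetal tissue, was 2.81-fold higher (2.57 to 3.08), from 24.3 to 68.4 CPM. The third was Lyl1, which also stands in the TAL1 list. Cd44, a marker of the earliest thymocytes, stood at 12.1 and 16.5 CPM and Ly6a at 15.4 and 13.9 CPM, so neither reached 2-fold.

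The larger share of cells without coreceptor UMIs was not matched by higher DN3 genes, the set expressed at the stage where the beta chain is rearranged. Of 13 members 7 passed, with 0 higher and 3 lower and a median of -0.63, or -0.22 in thinned cells. The lower ones were Ptcra, Cd7 and Fxyd5. The study reports more DN3a cells by clustering, which it found concordant with surface staining. With another gene set, it reports a DN3 progenitor program kept across preleukemic clusters. Shares of cells and surface protein are other measures than levels summed over a library. Ptcra, the pre-TCR alpha chain, stood at 43.5 CPM in WT and 8.69 CPM in the preleukemic library, 5.0-fold lower (4.43 to 5.66). Il2ra, the CD25 marker of DN2 and DN3 cells, was equal at 39.8 and 40.5 CPM. Among cells without a Cd8a or Cd8b1 UMI, Il2ra stood at 88.5 and 53.9 CPM, though more of those WT cells had Cd4. Of 14 Notch genes 7 passed, with 0 higher and 1 lower, the latter Ptcra. Notch1, the receptor that commits progenitors to the T lineage, stood at 77.4 and 144 CPM, a ratio of 1.87 (1.77 to 1.97), and Dtx1, a Notch target, at 19.8 and 12.8 CPM.

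Among recombination genes, Rag1 and Rag2 were lower. Of 12 genes 9 passed, with 0 higher and these 2 lower, and a median of -0.04. Rag1, which cuts TCR genes together with Rag2, stood at 475 CPM in WT and 112 CPM in the preleukemic library, 4.25-fold lower (4.11 to 4.40). Among cells with a Cd8a or Cd8b1 UMI, Rag1 stood at 656 and 192 CPM, but among cells without one it was higher in the preleukemic library, at 37.2 and 79.8 CPM. Rag2 was 5.07-fold lower (4.58 to 5.61) in sum and stood at 6.11 and 8.18 CPM among cells without Cd8a or Cd8b1. Dntt, the terminal transferase that adds bases at TCR joints, was equal in sum at 797 and 801 CPM. Among cells with a Cd8a or Cd8b1 UMI, Dntt stood at 1145 and 875 CPM, and among cells without one at 306 and 777 CPM. The cells without one included 481 WT and 18 preleukemic cells with Cd4 alone, so these levels do not compare like cells.

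TCR constant regions differed by locus. Of the 10 asked for, 7 were in the files and passed, with 4 higher and 1 lower. Trdc, the delta constant region, stood at 206 CPM in WT and 1149 CPM in the preleukemic library, 5.58-fold higher (5.42 to 5.75), and was found in 10.1% and 67.2% of thinned cells. Trac, the alpha constant region, which is joined by rearrangements that delete the delta locus, stood at 636 and 178 CPM, 3.57-fold lower (3.47 to 3.67). The beta constant regions Trbc1 (2671 and 2995 CPM) and Trbc2 (4706 and 3167 CPM) stayed under 2-fold. Tcrg-C2 stood at 42.8 and 451 CPM, 10.5-fold higher (9.89 to 11.2), and was found in 2.73% and 42.1% of cells. Tcrg-C1 and Tcrg-C2 are near-identical, as are Trbc1 and Trbc2, so the division of reads among copies is uncertain.

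Variable segments, summed by family after the constant regions had been seen, followed the same loci. The 7 gamma segments stood at 11.6 CPM in WT and 194 CPM in the preleukemic library, a ratio of 16.7 (14.8 to 18.9), and were found in 0.991% and 28.2% of thinned cells. The 6 delta segments stood at 5.45 and 22.7 CPM, a ratio of 4.17 (3.47 to 5.05). The 128 alpha segments were 1.82-fold lower (1.71 to 1.94), from 89.2 to 49.0 CPM. The 35 beta segments stood at 73.2 and 76.1 CPM, a ratio of 1.04 (0.980 to 1.10). A UMI of a constant or variable segment does not tell a rearranged from an unrearranged transcript. Surface staining in the study detected no increase in gamma-delta thymocytes in the preleukemic thymus. The study proposes that preleukemic DN3 cells transcribe gamma and delta segments unrearranged, which was not tested here.

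Genes of gamma-delta and Ror-lineage T cells were partly higher along with the gamma and delta loci. Of 17 members 8 passed, with 4 higher, 1 lower and a median of 0.97, and Trdc and Rora were among the higher ones. Sox13, a factor of gamma-delta T cells, stood at 2.79 CPM in WT and 35.1 CPM in the preleukemic library, 12.6-fold higher (9.84 to 16.3). Il18r1, a cytokine receptor of innate-like cells, was 2.26-fold higher (1.92 to 2.66). Sox4, a factor related to Sox13, stood at 459.9 and 778 CPM, a ratio of 1.69 (1.65 to 1.73), and Cd226 was equal at 29.1 and 28.7 CPM. Of 22 genes of natural killer T and innate-like cells 8 passed, with 1 higher and 3 lower. Gzma, a granule protease, stood at 85.4 and 347 CPM, 4.07-fold higher (3.88 to 4.26), while Il2rb was 2.82-fold lower (2.44 to 3.25).

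**Figure D4:**
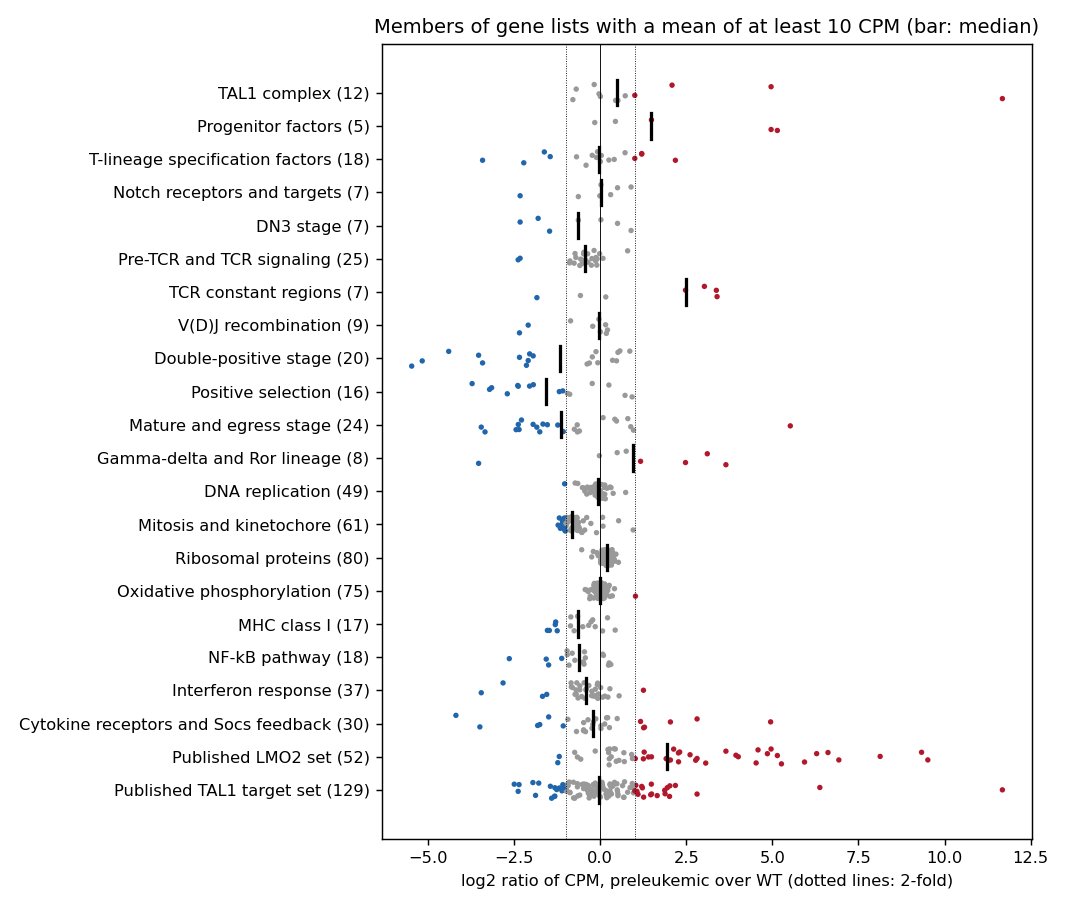
Log2 ratio of CPM, preleukemic over WT (x axis), of each member with a mean of at least 10 CPM in 22 gene lists, with the number of such members in parentheses. Red points are at least 2-fold higher, blue points at least 2-fold lower, dotted lines mark 2-fold and black bars the median of a list. The medians of the double-positive, positive selection and mature lists lie at -1.16, -1.56 and -1.15, and that of the published LMO2 set at 1.95.

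Pre-TCR and TCR signaling genes were slightly below WT. Of 26 members 25 passed, and 23 had a log2 ratio under 0, but only 2 were at least 2-fold lower, with a median of -0.43. Malt1, a scaffold between the TCR and NF-kB, stood at 47.3 CPM in WT and 9.08 CPM in the preleukemic library, 5.20-fold lower (4.62 to 5.87). The other lower gene was Ptcra, described above. Vav1, an exchange factor in the same pathway, was near equal at 76.5 and 81.0 CPM, and Rasgrp1, which activates Ras after TCR signals, stood at 255 and 139 CPM. In the NF-kB list 18 of 20 passed, with 0 higher and 4 lower. Nfkbia, the inhibitor that NF-kB itself induces, was 2.16-fold lower (2.08 to 2.25), from 258 to 119 CPM, and Traf1 6.22-fold lower (5.05 to 7.71), while Rela, a DNA-binding subunit, was near equal at 30.7 and 32.8 CPM.

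Cytokine receptors and signal transducers were divided, with 6 higher and 6 lower among 30 that passed of 37. The higher genes were 4 signal transducers and the receptor genes Il12rb2 and Il18r1. Stat3 stood at 55.4 CPM in WT and 228 CPM in the preleukemic library, 4.12-fold higher (3.89 to 4.36), and Stat5b at 97.5 and 234 CPM, 2.40-fold higher (2.29 to 2.51). Stat4 was 2.44-fold higher (2.11 to 2.84). Stat5a, Stat5b and Stat3 lie next to each other on chromosome 11, Stat5a and Stat3 overlap on opposite strands, and Stat5a and Stat5b are near-identical in part. Il12rb2 stood at 2.95 and 91.3 CPM, 30.9-fold higher (24.5 to 39.7). The lower genes included receptors of other cytokines and a feedback inhibitor. Il7r, the receptor chain for IL-7, was 3.37-fold lower (3.16 to 3.59), from 114 to 33.9 CPM, Il6ra 18.2-fold lower (13.7 to 24.6), Il4ra 11.2-fold lower (9.57 to 13.3) and Socs1, an inhibitor of Jak signaling, 3.52-fold lower (3.31 to 3.74).

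Of 19 MHC class I and antigen processing genes 17 passed, with 0 higher and 5 lower, all 5 of them heavy chains, and a median of -0.65. Tap2, a peptide transporter subunit, stood at 202 CPM in WT and 273 CPM in the preleukemic library, and Psmb10, an immunoproteasome subunit, at 100.4 and 106 CPM. H2-K1, a classical class I heavy chain, stood at 556 CPM in WT and 235 CPM in the preleukemic library, 2.37-fold lower (2.31 to 2.43). The others were H2-Q7, H2-T22, H2-T23 and H2-Q4, at 2.89-fold, 2.78-fold, 2.46-fold and 2.44-fold lower. These genes are alike in sequence, so their reads may be divided among copies. Of 50 interferon-response genes 37 passed, with 1 higher and 4 lower, among them Samhd1 and Ifi27l2a, and a median of -0.40, and Ly6e, one of its members, stood at 814 and 1194 CPM. In the Bcl2 family 9 of 18 passed, with 3 lower. Bcl2, which protects mature cells from death, stood at 249.4 and 89.2 CPM, 2.80-fold lower (2.68 to 2.91). Bcl2l1, the survival factor Bcl-xL of DP cells, was 4.13-fold lower (3.78 to 4.51), and Bcl2l11, the death-promoting Bim, 2.29-fold lower (2.10 to 2.49).

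Genes of adhesion and migration were divided, with 2 higher and 8 lower among 29 that passed of 36. Itga4, the alpha 4 integrin chain, stood at 49.4 CPM in WT and 183 CPM in the preleukemic library, 3.70-fold higher (3.48 to 3.93), and Itgb3 was 3.57-fold higher (3.05 to 4.18). Itgae, the alpha E integrin of cells that bind epithelium, was 4.19-fold lower (3.53 to 4.98), and Cd9, a tetraspanin, 11.3-fold lower (8.90 to 14.5). Quiescence factors were divided in the same way, with 1 higher and 5 lower of 23 that passed. Zfp36l2, which destabilizes mRNA in DN cells, stood at 179.8 and 456 CPM, 2.53-fold higher (2.45 to 2.62). Foxo1, which keeps T cells resting and drives Il7r, was 3.85-fold lower (3.51 to 4.23), from 61.6 to 16 CPM.

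Mitosis genes were mostly lower in sum, while replication genes were close to WT. Of 62 mitosis and kinetochore genes 61 passed, with 0 higher and 15 lower and a median of -0.81, and 57 had a log2 ratio under 0. Of 50 DNA replication genes 49 passed, with 0 higher, 1 lower (2.04%) and a median of -0.07. That median became 0.14 with all cells weighted alike and 0.24 with an upper limit on genes per cell. Ube2c, which starts exit from mitosis, stood at 238 CPM in WT and 107 CPM in the preleukemic library, 2.23-fold lower (2.14 to 2.32). Prc1, Nusap1 and Kif11, proteins of the spindle, were 2.33-fold, 2.18-fold and 2.14-fold lower. Rrm2, a subunit of ribonucleotide reductase, was the lower replication gene, at 344 and 169 CPM. The exception among mitosis genes was Smc4, a condensin subunit, at 678 and 1318 CPM, a ratio of 1.94 (1.91 to 1.98), which was found in 57.5% and 82.5% of thinned cells.

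The share of cycling cells depended on Smc4. Cells with at least 50 UMIs of replication and mitosis genes per 10000 made up 17.5% of WT (16.4 to 18.7%) and 30.1% of preleukemic cells (28.9 to 31.3%). Smc4 supplied 13.3% of the list's UMIs in WT and 27.9% in the preleukemic library. With Smc4 not counted the shares were 14.3% (13.2 to 15.4%) and 16.4% (15.5 to 17.4%). At 100 UMIs per 10000 they were 11.5% and 11.8% with all genes, and 11.4% and 10.7% without Smc4, with overlapping intervals. Near the threshold of 50, within 10 UMIs per 10000 of it, lay 8.63% of WT and 20.8% of preleukemic cells. Replication genes alone reached 25 UMIs per 10000 in 17.5% and 20.3% of cells. The share is thus a range cut from a score, and free RNA in the droplets adds to it by an amount that was not tested. The count without Smc4 was chosen after seeing the data.

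Levels of these genes within cells above or below the threshold are not compared, since the same genes set it. Cells at or above 50 UMIs per 10000 were deeper, with medians of 11135 UMIs in WT and 9673.5 UMIs in the preleukemic library, against 3400.5 and 4492.5 UMIs under it. Cyclins of the D and E type with their kinases were divided, with 1 higher and 4 lower among 13 that passed of 14. Cdk6, the partner kinase of D cyclins, stood at 98.4 CPM in WT and 272 CPM in the preleukemic library, 2.77-fold higher (2.65 to 2.89). Ccnd3, the D cyclin of dividing pre-DP cells, was 2.31-fold lower (2.26 to 2.36), from 808 to 349.6 CPM, and E2f2, an E2F factor of thymocytes, 3.89-fold lower (3.64 to 4.17). Ccne1, the cyclin of S phase entry, was 2.34-fold lower (2.07 to 2.65). Cdkn1b, the inhibitor p27, stood at 180.3 and 139.8 CPM, under 2-fold.

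Replication-dependent histones had 1 lower and 0 higher among 39 that passed of 67, with a median of -0.43. Their UMIs come from transcripts that mostly lack a poly(A) tail, which this chemistry captures poorly. The Myc, Max and Mxd genes had 1 lower and 0 higher among 10 that passed of 12, and Myc itself stood at 25.9 CPM in WT and 39.6 CPM in the preleukemic library, a ratio of 1.53 (1.39 to 1.68).

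Genes of protein synthesis and energy metabolism were close to WT. Of 83 ribosomal protein genes 80 passed, and 0 were 2-fold higher or lower, although 74 had a log2 ratio above 0 with a median of 0.20, against -0.03 over all genes compared. Rps24, a protein of the small subunit, stood at 4477 CPM in WT and 6476 CPM in the preleukemic library, a ratio of 1.45 (1.44 to 1.46). Ribosome biogenesis had 0 higher and 0 lower of 34 that passed, and the proteasome 0 and 0 of 46. Oxidative phosphorylation had 1 higher, Cyc1, and 0 lower of 75, with a median of 0.00. Cyc1, a subunit of complex III, stood at 62.9 and 128 CPM, 2.04-fold higher (1.92 to 2.16). Glycolysis had 2 lower of 19 that passed. Ldhb, a lactate dehydrogenase subunit, was 3.11-fold lower (3.02 to 3.20), from 544 to 175 CPM. Cholesterol synthesis had 1 higher and 0 lower of 19 that passed, with a median of 0.37.

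Of the genes of stress programs, 0 were at least 2-fold higher. The p53 response had 1 lower of 12 that passed (8.33%), and Trp53 itself stood at 154 CPM in WT and 162 CPM in the preleukemic library. The amino-acid and endoplasmic reticulum stress response had 2 lower of 21 (9.52%), among them Xbp1, a factor of that response, which was 2.51-fold lower (2.34 to 2.69). Immediate early and heat shock genes had 3 lower of 20 (15%) with a median of -0.56, and Fos, which rises within minutes of dissociation, stood at 17.3 and 20.1 CPM. Polycomb and DNA methylation genes had 1 lower of 34, Tet2, which oxidizes methylated cytosine, at 31.5 and 6.78 CPM, 4.64-fold lower (4.04 to 5.35).

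Gene sets published for LMO2, TAL1 and T-cell quiescence, taken from the study's curated sets, were read in the same way. The sets were picked by the study that made these libraries, so their counts are not independent evidence of a direction. Of 75 LMO2 genes in the files 52 passed, with 32 higher (61.5%) and 2 lower (3.85%), and a median of 1.95. Tbx4, a T-box factor of limb and lung, had 0 UMIs in WT and stood at 80.5 CPM in the preleukemic library, at least 645-fold higher against a floor of 3 UMIs in WT, and was found in 16.6% of thinned cells. Ryk, a Wnt co-receptor, stood at 0.333 and 93.3 CPM, Gpr34, a receptor for lysophosphatidylserine, at 0.707 and 86.3 CPM, and Serpine2, a protease inhibitor, at 0.499 and 49.0 CPM. The lower members were Tspan32, a tetraspanin, at 2.34-fold, and Ptp4a3, a phosphatase, at 2.27-fold.

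The TAL1 target set held higher and lower genes in like number, both shares above the background. Of 202 genes in the files 129 passed, with 20 higher (15.5%) and 17 lower (13.2%), and a median of -0.04. The higher genes include Tal1 itself, the transgene. Cebpe, a factor of granulocytes, stood at 0.458 CPM in WT and 38.1 CPM in the preleukemic library, 83.3-fold higher (46.4 to 167), yet was found in 3.43% of preleukemic cells. Arap2, a GTPase-activating protein, was 5.63-fold lower (5.18 to 6.13), from 98.5 to 17.5 CPM. The published quiescence set had 1 higher and 4 lower of 24 that passed, among the lower Rgcc, a cell-cycle regulator, at 258 and 107 CPM.

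Because the libraries held unlike shares of coreceptor classes, ratios were also taken within gates. The thinned cells were divided by a Cd8a or Cd8b1 UMI into cells with one (2010 WT and 1489 preleukemic) and without one (1219 and 3737). Of the cells without one, 481 WT and 18 preleukemic cells had Cd4 alone, so this gate held unlike cells. A ratio of at least 2-fold in the same direction was kept by 168 of 285 higher and 114 of 322 lower genes. It was kept in both coreceptor gates and in both low-cycling and cycling cells. The cycling cut counted Smc4 and so depended on it, with 1676 cycling preleukemic cells against 916 with Smc4 not counted. Cpa3 stood at 1.55 and 399 CPM in cells with Cd8 and at 2.44 and 1704 CPM in cells without it. Arhgap19 stood at 20.9 and 78.5 CPM in cells with Cd8 and at 5.60 and 148 CPM in cells without. The ratio of Tcrg-C1 was larger in cells with Cd8, with levels of 4.41 and 95.5 CPM there and 69.7 and 317 CPM in cells without. Among lower genes, Cd4 stood at 355 and 25.2 CPM in cells with Cd8 and at 215 and 3.13 CPM in cells without.

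**Figure D5:**
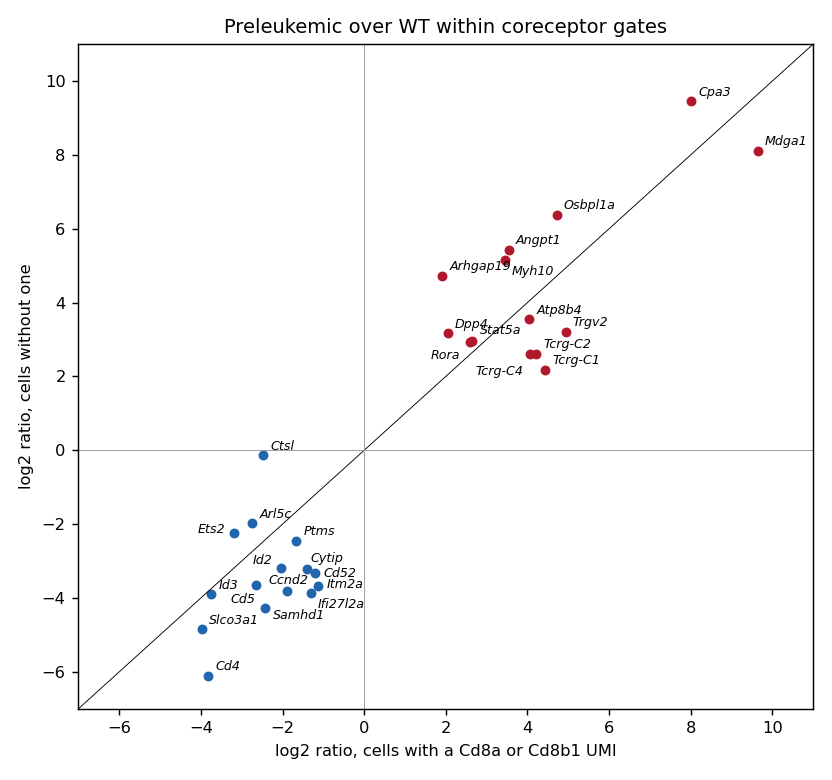
Log2 ratio of CPM, preleukemic over WT, in cells with a Cd8a or Cd8b1 UMI (x axis) and in cells without one (y axis), for the named genes with the largest ratios (red higher, blue lower in the sum over all cells, Tal1 left out because WT held 0 UMIs). The line marks equal ratios. The 14 red points lie above 0 on both axes and the 15 blue points below 0 on both, with Ctsl near 0 on the y axis at -0.14, and the x value of Mdga1 rests on 1 WT UMI.

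Markers of other cell types took a small part of both libraries. Cells with at least 3 markers of any one of them made up 115 of 4220 WT cells (2.73%) and 133 of 5576 preleukemic cells (2.39%). In the B cell list these were 5 and 17 cells, in the myeloid list 45 and 39, and in the list of dendritic cell markers 71 and 81. The summed level of the 14 myeloid markers was 278 CPM in WT and 157 CPM in the preleukemic library, and that of the 15 dendritic markers 920.4 and 718 CPM. The last sum came mostly from Ccr9, a chemokine receptor that DP thymocytes express and that is also in the DP list, at 729 and 562 CPM, while the defining markers Flt3, Itgax, Zbtb46 and Xcr1 were each under 1 CPM in both libraries. The cells of that list are therefore not called dendritic cells. The 10 neutrophil markers summed to 258 and 0.318 CPM, and 4 of them were counted as at least 2-fold lower. S100a9, a calcium-binding protein that neutrophils make in bulk, stood at 105 CPM in WT, held by 7 cells, and at 0 UMIs in the preleukemic library. The 12 erythroid markers summed to 114 and 26.6 CPM, of which Hbb-bs, a beta globin with close copies, was held by 18 WT cells. Thymic epithelial markers summed to 7.65 and 2.74 CPM, and megakaryocyte markers to 0.374 and 0.318 CPM. The levels of S100a9 and Hbb-bs in WT thus rested on few cells. With all cells of other types left out, 284 genes were at least 2-fold higher and 322 lower.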

How the data were processed

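Gene expression of single thymocytes was compared in 2 of the study's 4 libraries. The authors deposited raw counts, the UMIs of 31053 genes per called barcode. Cell Ranger 3.0.2 wrote both matrices per their file headers, and the labels name build mm10. Coordinates come from GENCODE M21 on GRCm38, in which 30934 identifiers (99.6%) were found, 98.5% under the same symbol. The 35 symbols with more than 1 identifier were kept apart. Promoters come from RefSeq on GRCm38.p6.

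Barcodes with over 500 genes and under 10% mitochondrial UMIs were kept. No doublet caller was run, and an upper limit on genes was tried as an alternative. UMIs were summed per library and scaled to CPM. Genes with a mean of at least 10 CPM over both libraries were compared, and at least 2-fold counted as higher or lower. Exact Poisson, Clopper-Pearson and conditional binomial 95% intervals were used, and a level of 0 was set to a floor of 3 UMIs for ratios. Thinning drew 2000 UMIs per cell without replacement. With 1 library a group no test, p-value or adjustment was possible. A gene was named as a transgene, as 1 of the 15 largest ratios in each direction among 1805 genes with at least 100 CPM and 10% of cells in one library, or as 1 of the 5 largest per direction in a list. Other genes named were chosen after their values were seen. Some genes that this rule names are not reported here. The members and the 54 gene lists were chosen with earlier results of these data known. Cycling was the sum of UMIs of DNA replication and mitosis genes per 10000 UMIs of a cell.

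Python 3.11.15 with numpy 2.4.6, scipy 1.17.1, pandas 2.3.3 and matplotlib 3.10.9 was used. R 4.3.3 with edgeR 4.0.16 and DESeq2 1.42.0 gave scaling factors alone. The ratio and thinning steps were tested on simulated data. Alternatives changed 1 choice at a time, except low-cycling cells with Smc4 not counted, which changed the cells and the genes of the score together.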

Additional observations from a re-analysis of the deposited data

How the results depend on the processing

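With 1 library per group, no setting could show the spread between animals, and leaving out a replicate was not possible. No paired analysis was possible because each group held 1 library and no test was made. The number of genes at least 2-fold higher or lower, 285 and 322, depended on the filter on low levels, and was 1508 and 3140 with no filter and 81 and 110 with a mean of at least 50 CPM. Under the other 12 settings the counts lay between 283 and 417 higher and between 298 and 405 lower genes, and 0 of the 285 higher genes turned lower. At most 8 of the 322 lower genes turned higher, in low-cycling cells with Smc4 not counted. TMM factors and median-of-ratios size factors moved the median of all genes by 0.05 and 0.03 on the log2 scale. Alternatives chosen after seeing the data were mitochondrial genes left out of totals, cells of 2000 to 10000 UMIs alone, and every setting with Smc4 not counted.

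Coreceptor shares moved with depth. At the cells' own depth, WT held 55.1% of cells with Cd4 and Cd8, 20.9% with Cd8 alone, 16.3% with Cd4 alone and 7.70% with neither, and the preleukemic library 3.93%, 35.9%, 0.502% and 59.7%. Thinned to 1000 UMIs, WT held 29.5%, 32.8%, 8.72% and 28.95%, and the preleukemic library 0.831%, 20.2%, 0.199% and 78.8%. The share with Cd8 alone changed its order between libraries in these settings.

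Cells at or above a cell-cycle threshold made up 48.1% of WT and 74.6% of preleukemic cells at 25 UMIs per 10000 and 11.5% and 11.8% at 100. With Smc4 not counted these were 30.2% and 32.7% at 25, 14.3% and 16.4% at 50, and 11.4% and 10.7% at 100, so the order at 100 changed.

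List medians crossed 0 under at least 1 setting in 14 of 50 lists. In 12 of these at least one of the values lay within the counting interval of a typical member, such as V(D)J recombination at -0.04 and 0.035 in low-cycling cells, or DNA replication at -0.07 and 0.24 with an upper limit on genes per cell. The replication and mitosis lists were not read in low-cycling cells, which they define. Among the 12, the median of replication-dependent histones went from -0.43 to 0.037 in low-cycling cells with Smc4 not counted. In the other 2 lists no such value lay within the counting interval. The median of Cdk inhibitors was -0.37 and became 0.093 in low-cycling cells and 0.079 there with Smc4 not counted. That of 5 genes of the dendritic marker list was -0.34 and became 0.89 in thinned cells, 0.20 with all cells weighted alike, 0.61 with an upper limit on genes per cell, 1.30 in low-cycling cells, 1.63 in cells of 2000 to 10000 UMIs and 1.11 in low-cycling cells with Smc4 not counted. Among named genes, the log2 ratio of Xcl1 became 0.27 without cells of other types, and that of Lgals3 0.049 with all cells weighted alike and 0.79 in cells of 2000 to 10000 UMIs. The cause was not tested.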

Other observations

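Genes of the same direction often lay side by side. Of 285 genes at least 2-fold higher, 44 (15.4%) had another higher gene within 50000 bases, and of 322 lower genes 52 (16.1%) had another lower gene there. Among the 8038 compared genes with a position, 4.57% had a higher gene and 4.93% a lower gene within the same reach, the called genes themselves included. The distance and the pairs named here were chosen after the values had been seen. Gpr34 and Gpr82, receptor genes 20504 bases apart on chromosome X, stood at 0.707 and 0 CPM in WT and at 86.3 and 42.6 CPM in the preleukemic library. Cebpe and Slc7a8, an amino acid transporter 10034 bases away, were also higher. Slc7a8 stood at 0.957 and 36.8 CPM. Among the lower genes, Rag1 and Rag2 lie 5752 bases apart, Id3 and E2f2 26638 bases apart, and Cd4 and Gpr162 708 bases apart. Gpr162 stood at 25.6 CPM in WT and 1.49 CPM in the preleukemic library.

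In the other lists, 7 of 25 genes of the TNF family passed the filter, with 1 higher and 3 lower. Tnfsf10, the death ligand TRAIL, stood at 8.73 CPM in WT and 33.8 CPM in the preleukemic library, 3.86-fold higher (3.34 to 4.49). Ltb, which encodes lymphotoxin beta, was 1.83-fold lower (1.78 to 1.88), from 439 to 240.3 CPM. Of 8 Gimap GTPases, which support lymphocyte survival, all passed, with 0 higher and 1 lower. Gimap7 stood at 65.2 and 125 CPM, under 2-fold. In the Ly6 family 6 of 12 passed and Ly6c1 alone was at least 2-fold higher, while Ly6k stood at 41.5 and 82.6 CPM. The 1 endothelial gene that passed, Pecam1, stood at 59.8 and 74.7 CPM and the 1 B cell gene, Ighm, at 179.8 and 101 CPM. Pecam1 was found in 13.8% and 14.6% of thinned cells, and Ighm in 26.7% and 17.2%.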
